A study of Homo sapiens with 24 samples.

Results

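Peaks on chromosome 12 from 55 to 70 Mb (GRCh37), a stretch that runs from ahead of CDK4 to beyond MDM2, were described in 8 peak lists of HCC827, a cell line from a human lung adenocarcinoma in which EGFR is both mutated and amplified. A peak was a member if its midpoint lay within those bounds, which gave 251 of the 13347 peaks of the 8 lists. Of the members, 155 lay at 57 to 59 Mb (the CDK4 cluster), 41 at 64 to 66 Mb (the TBK1 cluster) and 55 in the rest of the window. The window was chosen because peaks crowd there in these same lists, so its counts, shares and heights are descriptions. The nearest peak outside its left bound lay 48.5 kb before it with a height of 6.03, and the first inside lay 924 kb after it with a height of 3.66. At the right bound the last peak inside lay 673 kb before it with a height of 4.36, and the next outside lay 133 kb beyond with a height of 4.71.

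The cells were parental HCC827, labelled untreated, or osimertinib-resistant HCC827-OR cells, labelled as treated with osimertinib and kept in 1 µM of it. Osimertinib is an inhibitor of mutant EGFR. In each state there were wild-type cells and cells overexpressing METTL7A, a methyltransferase-like protein, with MYC and FLAG tags attached. Chromatin was pulled down with isotype IgG as the control or with anti-MYC-tag antibody, 2 replicates for each of the 8 combinations. These 16 samples entered the lists, and the 8 input samples in 4 groups were not analysed here. The tag is a stretch of human MYC, which means that MYC itself can be bound, and wild-type cells carry no tag. The promoter that drives the transgene, and whether the METTL7A or resistant cells are 1 clone, are not given in the labels.

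Each list pairs the peaks of its 2 replicates and ranks how well they recur by the irreproducible discovery rate (IDR). All peaks of a list are called matched, and those with a global IDR of 0.05 or less are called reproducible. The height of a peak is the −log10 p-value of the authors' peak caller, given below as a pair for the first and second set of replicate columns, and as the lower of them where 1 value stands alone. The files do not name the replicate behind each set of columns, and heights of different lists share no common scale. Matched peaks of the 8 lists that overlapped by 1 bp or more were merged into 11138 positions over the genome, of which 110 lay in the window. The lists held 70 to 3165 matched peaks. Library depth is unknown from the files, so more DNA copies, a deeper library and more bound sites cannot be told apart in any count below.

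CDK4 is a kinase that pairs with D-type cyclins and phosphorylates the retinoblastoma protein, which lets cells enter S phase. MDM2, further along the same chromosome arm, is the ubiquitin ligase that keeps p53 low, and the stretch that holds both genes is known to be amplified in some sarcomas, gliomas and lung tumours. TBK1, which lies between them, is a kinase of innate immune signalling. MYC binds DNA with its partner MAX, with the E-box CACGTG as its best known site, and MYC signal is also common at open promoters without one.

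The promoters of CDK4, TBK1, AGAP2 and MDM2 are shown because the window is named for or turns on these genes, and that of PIP4K2C because its start carried a peak in the METTL7A MYC-tag lists and in no other. PIP4K2C was added to this set after its values were seen. Each is the 250 bases before an annotated start, 5′ to 3′ on the gene's strand, from RefSeq on GRCh38.p14, a different build from that of the peaks. Capitals mark CACGTG.
CDK4, minus strand, chr12:57752311-57752560: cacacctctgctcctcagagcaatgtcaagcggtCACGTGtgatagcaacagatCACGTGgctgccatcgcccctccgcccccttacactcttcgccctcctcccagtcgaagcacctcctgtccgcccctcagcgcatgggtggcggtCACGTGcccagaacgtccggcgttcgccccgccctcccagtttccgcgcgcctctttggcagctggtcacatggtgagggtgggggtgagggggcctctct
TBK1, plus strand, chr12:64451870-64452119: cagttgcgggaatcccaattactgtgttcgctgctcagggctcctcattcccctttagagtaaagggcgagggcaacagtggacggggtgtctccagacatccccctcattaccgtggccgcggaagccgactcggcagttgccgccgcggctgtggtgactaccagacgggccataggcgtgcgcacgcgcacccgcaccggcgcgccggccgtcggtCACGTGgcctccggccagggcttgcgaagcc
PIP4K2C, plus strand, chr12:57590942-57591191: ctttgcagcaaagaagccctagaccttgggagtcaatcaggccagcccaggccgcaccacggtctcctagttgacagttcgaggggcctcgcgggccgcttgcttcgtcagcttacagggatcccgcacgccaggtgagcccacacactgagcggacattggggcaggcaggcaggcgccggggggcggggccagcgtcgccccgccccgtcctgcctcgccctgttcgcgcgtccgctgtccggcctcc
AGAP2, minus strand, first start of the table, chr12:57742162-57742411: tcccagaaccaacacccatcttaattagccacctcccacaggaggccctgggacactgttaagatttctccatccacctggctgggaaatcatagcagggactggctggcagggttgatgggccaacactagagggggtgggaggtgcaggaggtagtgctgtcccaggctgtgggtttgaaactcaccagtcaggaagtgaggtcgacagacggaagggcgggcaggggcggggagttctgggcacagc
AGAP2, minus strand, second start of the table, chr12:57738743-57738992: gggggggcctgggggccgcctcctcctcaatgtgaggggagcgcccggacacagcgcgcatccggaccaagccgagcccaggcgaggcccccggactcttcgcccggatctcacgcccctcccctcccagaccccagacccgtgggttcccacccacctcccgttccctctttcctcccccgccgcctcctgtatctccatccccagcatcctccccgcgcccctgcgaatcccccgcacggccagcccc
MDM2, plus strand, first of 4 starts in the table, chr12:68807922-68808171: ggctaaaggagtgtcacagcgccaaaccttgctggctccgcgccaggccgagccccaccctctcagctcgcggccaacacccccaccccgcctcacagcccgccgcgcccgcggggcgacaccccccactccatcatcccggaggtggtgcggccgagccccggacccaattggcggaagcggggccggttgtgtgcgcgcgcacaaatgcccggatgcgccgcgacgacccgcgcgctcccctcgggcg

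The 6 letters CACGTG, which read the same on both strands, were searched in 300 bases per promoter, 250 before the start and 50 after it. CDK4 held 3, with first bases at −216, −196 and −101 from the start. TBK1 held 1 at −31, and PIP4K2C held 1 at 4, in the bases after the start that are not shown. None was found in the 2 AGAP2 and 4 MDM2 promoters of the table. Of all 35116 promoters of that length, 7.26% held the letters at least once and 0.094% held them 3 times or more. Of the 25 genes of the window with a matched peak at their start, 20 had a promoter in the table and 7 of the 20 held CACGTG, against 8.77% of the 27305 genes of the table. Peaks of IgG lists counted here as well as those of MYC-tag lists, and IRAK3, among the 7, had an IgG peak only. Of the 7, only CDK4, TBK1 and PIP4K2C had a reproducible peak at the start. Among the genes of the 20 without CACGTG, RASSF3, OS9 and MDM1 had one too, that of MDM1 in an IgG list. The GC content of the 300 bases was 66% for CDK4, 68.3% for TBK1 and 70.3% for PIP4K2C, against a median of 58.7% over the table (quartiles 47% and 68%). It was 60.3% and 72% for the AGAP2 starts, and 74.7% for the MDM2 start shown, a gene with no matched peak in any list. A match is a stretch of letters and no evidence of binding, and the genes with a peak at their start were chosen by their peaks in the same lists.

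The CDK4 cluster was largely 1 run of peaks. When positions within 50 kb of each other were joined, a run of 30 positions reached from 12:57965833 to 12:58159116, which is 193.3 kb, and peaks covered 54.3 kb of it (28.1%). It spans KIF5A, PIP4K2C, DTX3, ARHGEF25, SLC26A10P, B4GALNT1, OS9, AGAP2, TSPAN31, CDK4 and CYP27B1. Of its positions, 16 had a matched peak in 4 or more lists, which ranked the run 2nd of 5486 runs in the genome by that number, while by positions alone it ranked 16th. No matched peak of any list lay in the 331 kb before it, which hold R3HDM2, GLI1, MARS1, DDIT3, MBD6 and DCTN2, or in the 131 kb after it. The same bounds came out when positions were joined within 25 or within 100 kb, both chosen after the data were seen.

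**Figure D1:**
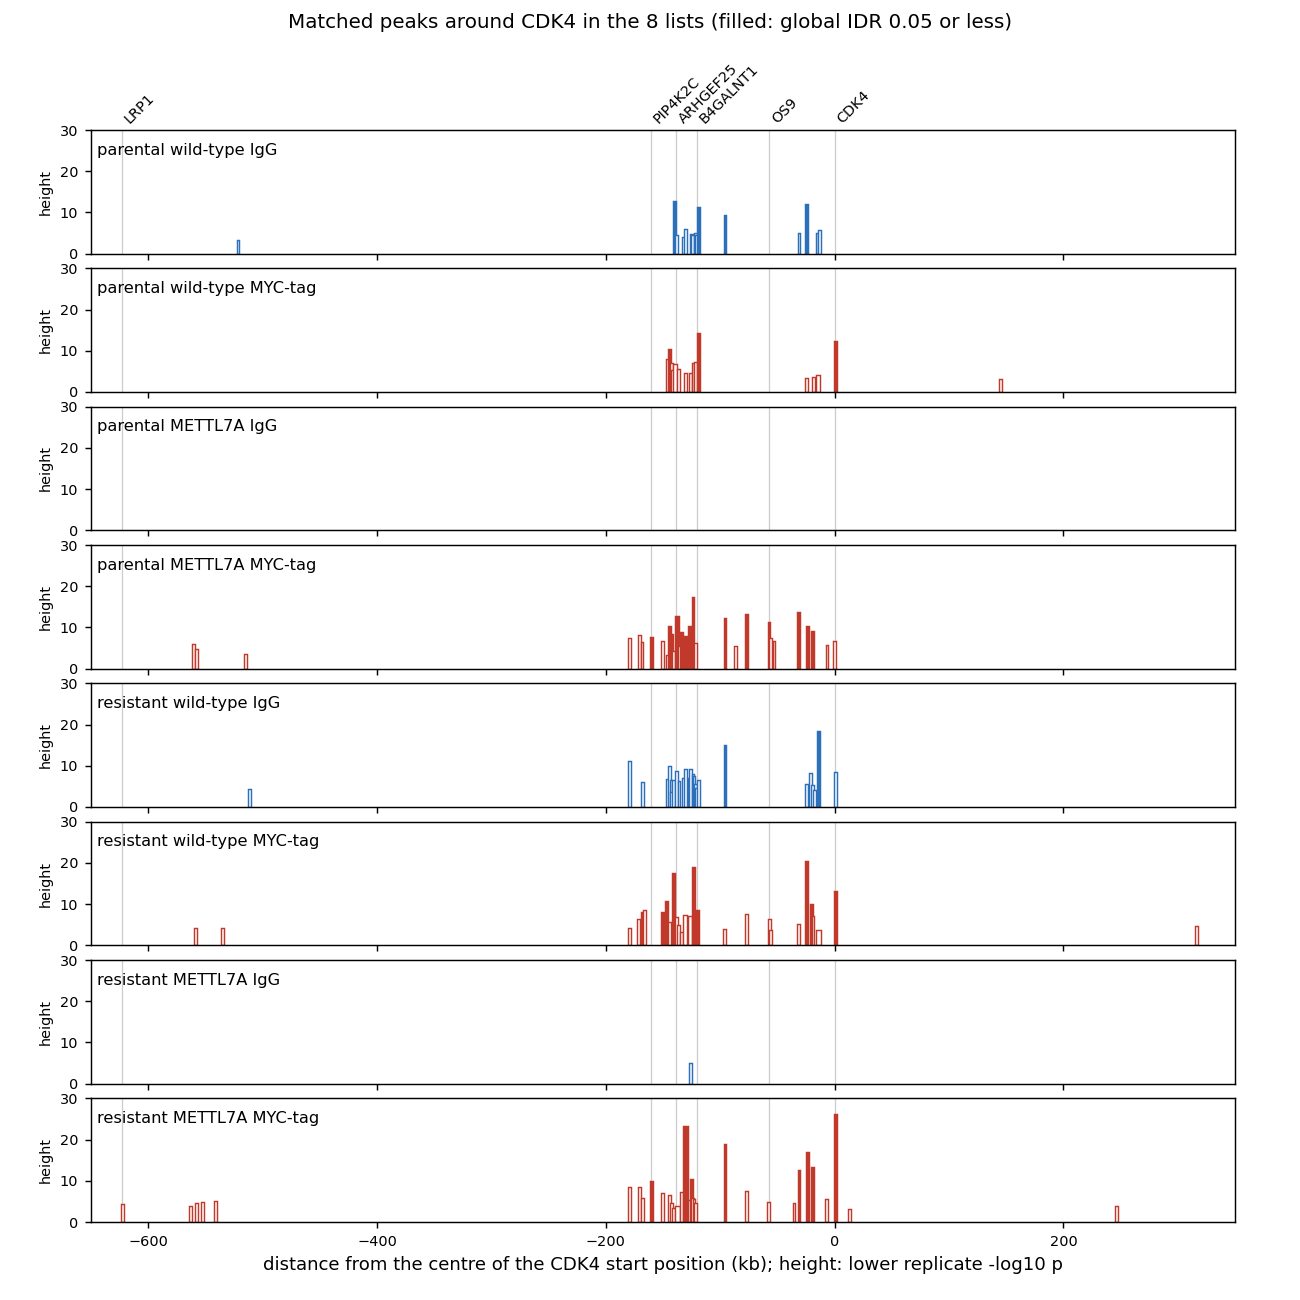
Matched peaks around CDK4 in the 8 lists, 1 panel per list, by distance from the centre of the CDK4 start position (x axis, kb) and height (y axis, lower replicate −log10 p). Filled bars are reproducible peaks, red is MYC-tag and blue is IgG. The run stands out in the 6 longer lists, while the parental METTL7A IgG list has no peak in it and the resistant METTL7A IgG list has 1.

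The parental wild-type IgG list had 14 peaks in the run, from 12:58004633 to 12:58133308, and the parental wild-type MYC-tag list had 15, from 12:57998370 to 12:58146522. Neither reached the KIF5A and PIP4K2C end. The parental METTL7A MYC-tag list had 28 peaks in the run and the resistant METTL7A MYC-tag list 26, both from KIF5A onward. The resistant wild-type lists had 25 each with IgG and with MYC-tag, also from KIF5A onward. Peaks covered 40.7 kb of the run in the resistant wild-type MYC-tag list, 35.6 kb in parental METTL7A MYC-tag and 14.9 to 30 kb in the other 4 long lists.

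As a share of its list, the cluster ran from 0% to 1.59%. The parental wild-type IgG list held 15 of 1444 matched peaks there, 1.04% (exact Clopper-Pearson 95% interval 0.583 to 1.71), and parental wild-type MYC-tag 16 of 1005, 1.59% (0.913 to 2.57). The parental METTL7A MYC-tag list held 32 of 2271, 1.41% (0.966 to 1.98), and the IgG list of those cells 0 of 70, which allows a share of up to 4.29% by the limit of 3 counts and 5.13% by the exact interval. The resistant wild-type lists held 28 of 2529 with IgG, 1.11% (0.737 to 1.60), and 30 of 2767 with MYC-tag, 1.08% (0.733 to 1.54). The resistant METTL7A lists held 1 of 96 with IgG, 1.04% (0.0264 to 5.67), and 33 of 3165 with MYC-tag, 1.04% (0.719 to 1.46). All these intervals overlap, and they cover counting error only.

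Reproducible peaks in the cluster numbered 14 in the parental METTL7A MYC-tag list, where 6.38% of all matched peaks were reproducible, and 8 in the resistant one, where 3.29% were. In wild-type cells the MYC-tag lists had 3 in parental (2.59% of that list reproducible) and 9 in resistant cells (2.28%). The wild-type IgG lists had 4 (2.15%) and 2 (0.791%). The METTL7A IgG lists had none, with 75.7% of the parental and 13.5% of the resistant list reproducible at lowest heights of 3.18 and 4.98, against 7.15 to 12.9 in the other 6 lists. The threshold therefore lies at a different height in each list, and these counts do not rank the lists.

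CDK4 itself carried a peak at its start, 12:58144453–58146608, in all 4 MYC-tag lists and 1 of the 4 IgG lists. The METTL7A IgG lists, with 70 and 96 peaks in all, could add little to the IgG count. The pair of heights was 12.8 and 12.4 in parental wild-type MYC-tag, 6.76 and 58.3 in parental METTL7A MYC-tag, 13.3 and 17.7 in resistant wild-type MYC-tag and 26.3 and 36.6 in resistant METTL7A MYC-tag. In resistant wild-type IgG it was 8.45 and 22.9. The resistant METTL7A MYC-tag peak was the 2nd highest of its list by the lower value. The parental METTL7A MYC-tag pair differed most, and with a global IDR of 0.385 that peak was not reproducible, nor was the resistant IgG one at 0.370. The other 3 were reproducible. The CDK4 promoter printed above is the one with 3 CACGTG stretches.

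PIP4K2C, a phosphatidylinositol-5-phosphate 4-kinase subunit, had the one start in the window with reproducible peaks in both METTL7A MYC-tag lists and no matched peak in the other 6. Among those 6, the METTL7A IgG lists held only 70 and 96 peaks in all, so their lack of a peak says little. At 12:57984684–57985619 the pair was 7.78 and 19.3 in parental and 10.1 and 16.1 in resistant cells. The start of TSPAN31, a tetraspanin gene next to CDK4, was the other position found in those lists alone, with 5.78 and 21.2 in parental and 5.67 and 13.2 in resistant cells, neither reproducible. Over the genome 2.05% of positions had this pattern, and in the CDK4 cluster 2 of 49 did.

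Next in the run came the stretch from DTX3 to B4GALNT1, where genes lie close together. DTX3, a deltex-family ubiquitin ligase, had a start position (12:57998206–58000162) whose heights ran from 3.21 and 8.11 in parental METTL7A MYC-tag to 25.8 and 10.7 in resistant wild-type MYC-tag, the only list of 4 in which it was reproducible. Within DTX3, 12:58000551–58001665 had a peak in 5 lists, the 4 MYC-tag lists and resistant wild-type IgG, reproducible in both parental MYC-tag lists. The pairs there were 11.4 and 10.3 in wild-type and 19.8 and 10.4 in METTL7A cells.

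ARHGEF25, a guanine nucleotide exchange factor gene, lay under the widest position of the window, 7009 bp with 16 peaks of 6 lists (12:58003727–58010735). Its highest peak per list was 12.7 and 20.5 in parental wild-type IgG, 20.0 and 6.82 in parental wild-type MYC-tag and 12.8 and 17.1 in parental METTL7A MYC-tag. In resistant cells it was 10.3 and 8.70 in wild-type IgG, 20.4 and 17.5 in wild-type MYC-tag and 4.00 and 18.7 in METTL7A MYC-tag. It was reproducible in parental wild-type IgG, parental METTL7A MYC-tag and resistant wild-type MYC-tag. At such a position, different peaks of different lists are joined by chains of overlap, as at 8 positions of the CDK4 cluster where a list has more than 1 peak.

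SLC26A10P, listed as a pseudogene of an anion transporter family, had the position found in most lists. At its end, 12:58017566–58020979, 7 of the 8 lists had a peak, with the parental METTL7A IgG list as the exception. The pairs were 10.4 and 27.8 in parental METTL7A MYC-tag and 10.5 and 12 in resistant METTL7A MYC-tag, both reproducible, and 6.90 and 4.96 in the resistant METTL7A IgG list. Within the gene, 12:58012909–58016992 reached 23.4 and 32.3 in resistant METTL7A MYC-tag, the 5th highest peak of that list, and 4.61 and 12.7 in parental wild-type MYC-tag.

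B4GALNT1 encodes the synthase of gangliosides GM2 and GD2. Inside it, 12:58021244–58022920 had peaks in the 4 wild-type and both METTL7A MYC-tag lists. They were reproducible at 17.3 and 26.7 in parental METTL7A MYC-tag and at 29.6 and 18.9 in resistant wild-type MYC-tag. The start position, 12:58023565–58027223, was also found in those 6 lists, but the peaks did not cover the same bases. A stretch of 1674 bp, 12:58025479–58027152, was shared by the peaks of all 4 wild-type lists, at 11.3 and 21.6 and 14.3 and 24.1 in parental IgG and MYC-tag and 6.50 and 47.2 and 17.4 and 8.51 in resistant IgG and MYC-tag, reproducible in all but resistant IgG. No METTL7A MYC-tag peak touched that stretch, and the nearest, in parental cells, ended 1186 bp away. The METTL7A MYC-tag peaks of this position had 6.12 and 9.18 in parental and 4.67 and 10.0 in resistant cells.

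Between B4GALNT1 and OS9 lay a position with no gene named here, 12:58049330–58050061, with peaks in 5 lists, 4 of them reproducible. Its pairs were 10.8 and 9.46 in parental wild-type IgG, 12.3 and 17.3 in parental METTL7A MYC-tag, 15 and 29 in resistant wild-type IgG and 18.9 and 23.3 in resistant METTL7A MYC-tag. In resistant wild-type MYC-tag it was 27.0 and 3.93 and not reproducible, and in parental wild-type MYC-tag there was no peak. OS9 encodes a lectin of endoplasmic reticulum quality control. Its start, 12:58087523–58088870, had peaks in 3 MYC-tag lists and no IgG list, at 11.4 and 30.2 in parental METTL7A cells (reproducible), 11.4 and 6.49 in resistant wild-type and 4.78 and 17.8 in resistant METTL7A cells. Within OS9, 12:58113721–58115004 was reproducible in both METTL7A MYC-tag lists, at 13.7 and 21.3 in parental and 14.8 and 12.6 in resistant cells.

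AGAP2, a GTPase-activating protein for Arf, carried 3 recurrent positions. The first, 12:58119244–58122294, was in the 4 wild-type and both METTL7A MYC-tag lists and reproducible in 4. It stood at 12.1 and 38.4 in parental wild-type IgG, 3.38 and 28.8 in parental wild-type MYC-tag, 5.64 and 71.4 in resistant wild-type IgG and 20.5 and 35.6 in resistant wild-type MYC-tag. In METTL7A MYC-tag it stood at 10.3 and 10.3 in parental and 17 and 20 in resistant cells, each reproducible. The second, 12:58124123–58127577, was in 5 lists and reproducible in 3, both METTL7A MYC-tag lists among them.

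The third AGAP2 position, 12:58128977–58134056, was the single position of the CDK4 cluster with a peak in all 4 wild-type lists and in no METTL7A list. Its pairs were 5.67 and 26.3 in parental IgG, 4.01 and 22.6 in parental MYC-tag, 18.5 and 64.2 in resistant IgG and 18.6 and 3.65 in resistant MYC-tag. Only the resistant IgG peak was reproducible. The 4 peaks shared 12:58130665–58132402, and the nearest METTL7A MYC-tag peak lay 3871 bp from it.

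KIF5A, a kinesin heavy chain, held the left end of the run, with 4 positions. The outermost, 12:57965833–57966400, had peaks in 4 lists, none reproducible. The pairs were 7.37 and 7.99 in parental METTL7A MYC-tag, 8.53 and 9.75 in resistant METTL7A MYC-tag, 11.2 and 13.5 in resistant wild-type IgG and 12.1 and 4.09 in resistant wild-type MYC-tag. At 12:57976448–57978468 4 lists had peaks, and the resistant wild-type MYC-tag peak, 14.8 and 8.04, was reproducible. Neither parental wild-type list had a peak in KIF5A.

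**Figure D2:**
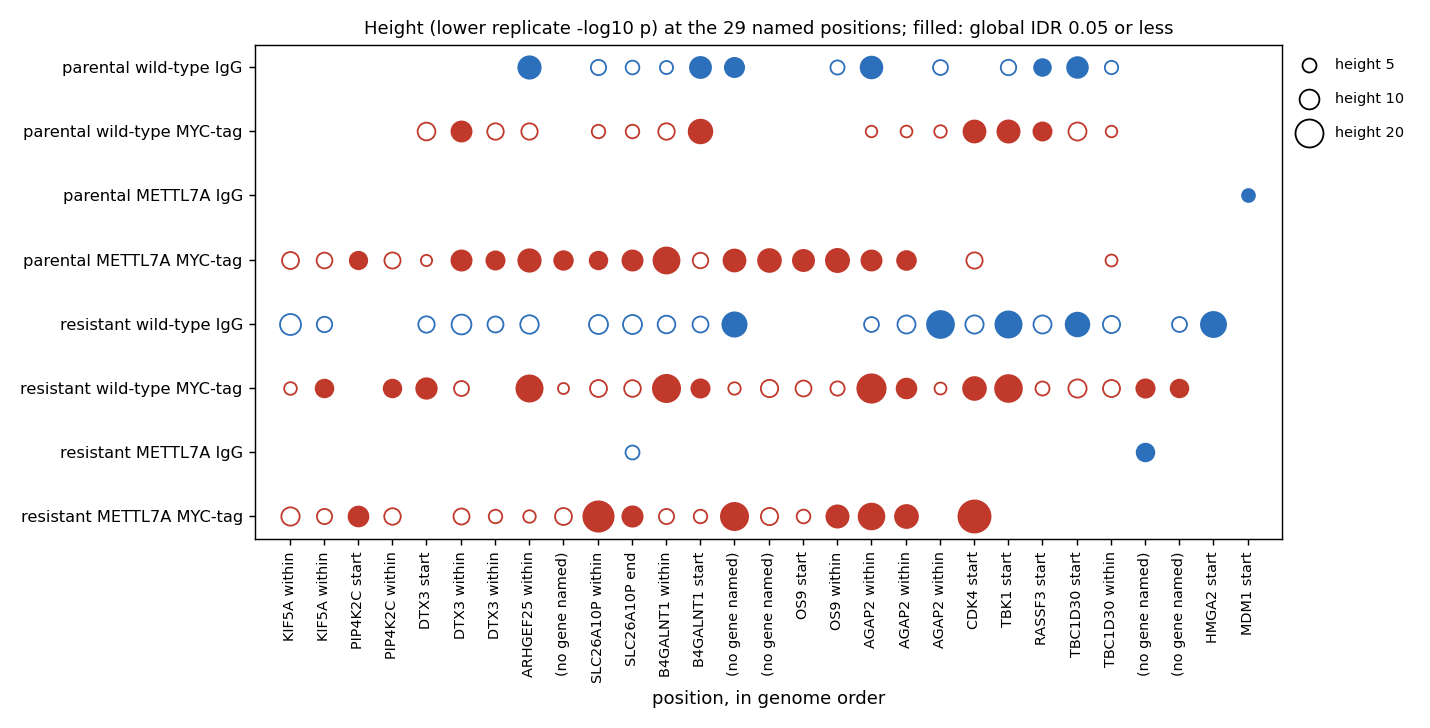
Height at 29 positions with a reproducible peak or with matched peaks in 4 or more lists (x axis, in genome order) in each of the 8 lists (y axis), with the area of a circle proportional to the lower replicate −log10 p of the highest peak of the list. Filled circles are reproducible, red is MYC-tag and blue is IgG, and an empty cell means no matched peak. The TBK1, RASSF3 and TBC1D30 starts and the third AGAP2 position have circles in the 4 wild-type rows and none in the METTL7A rows.

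Of 27 genes listed for the CDK4 cluster by neighbourhood, 14 had a matched peak, 8 of them at the start, and 9 had a reproducible one. Only 1 start per gene was considered, and the second AGAP2 start printed above was not placed on GRCh37. LRP1, a lipoprotein receptor gene ahead of the run, had peaks in 3 MYC-tag lists at heights of 3.98 to 5.92, none reproducible. SHMT2, the mitochondrial serine hydroxymethyltransferase, had 1 peak of height 3.32 in parental wild-type IgG. CYP27B1, which makes active vitamin D, closed the run with 1 peak of 3.10 in resistant METTL7A MYC-tag. Outside the positions with a reproducible peak or with matched peaks in 4 or more lists, the highest peaks of the window lay in KIF5A in 3 MYC-tag lists. They stood at 8.19 and 10.9 in parental METTL7A and 9.62 and 8.45 in resistant METTL7A cells, both at 12:57973971–57975812, and at 8.85 and 8.52 in resistant wild-type cells at 12:57979200–57979513. In resistant wild-type IgG the highest such peak had 8.99 and 18.6 at 12:66135596–66136439, in parental wild-type MYC-tag 5.31 and 6.27 at the SRGAP1 start, and in parental wild-type IgG the SHMT2 peak and one at the start of LRIG3 both had 5.27 and 3.32.

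In the TBK1 cluster, 3 gene starts had peaks in all 4 wild-type lists and in no METTL7A list. TBK1 had such a position at its start, 12:64845526–64846409. The pairs were 6.09 and 28.4 in parental IgG, 12.6 and 23.6 in parental MYC-tag, 17.5 and 44.4 in resistant IgG and 18.3 and 29.8 in resistant MYC-tag. The last 3 were reproducible, and the parental IgG peak had a global IDR of 0.0595. The nearest METTL7A MYC-tag peak lay 80421 bp from the stretch the 4 peaks shared. A second position within TBK1 had peaks of 4.57 and 3.06 in the resistant wild-type lists.

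RASSF3, a Ras-association domain family gene, showed the same pattern at its start, 12:65003913–65005075. Its pairs were 7.15 and 27.1 in parental IgG, 8.42 and 21.7 in parental MYC-tag, 8.29 and 30.3 in resistant IgG and 5.01 and 15.5 in resistant MYC-tag, with the parental pair of lists reproducible. TBC1D30, a Rab GTPase-activating protein gene, had 11 and 24.3, 8.27 and 14.9, 14.3 and 36.8 and 8.44 and 9.51 at its start (12:65174072–65175344) in the same order, with both IgG peaks reproducible. At all 3 starts the wild-type IgG lists had a peak as well as the wild-type MYC-tag lists. The nearest METTL7A MYC-tag peak lay 76977 bp from the shared stretch at RASSF3 and 20796 bp from that at TBC1D30.

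With the third AGAP2 position, 4 of the 110 positions of the window were found in all 4 wild-type lists and no METTL7A list, while 16 of 11138 were over the genome (0.144%). In all 4 wild-type lists, with or without METTL7A, were 7 positions of the CDK4 cluster and 4 of the TBK1 cluster, with a background of 0.485%. The METTL7A IgG lists, with 70 and 96 peaks in all, could add little to this count, so it rests on the 2 METTL7A MYC-tag lists. These held 2271 matched peaks in parental and 3165 in resistant cells, against 1444 and 1005 in the parental and 2529 and 2767 in the resistant wild-type lists.

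Elsewhere in the TBK1 cluster METTL7A lists did have peaks. The KICS2 start had a peak of 6.32 in resistant METTL7A MYC-tag. Within TBC1D30, 12:65218085–65219791 had peaks in 5 lists, the 4 wild-type ones and parental METTL7A MYC-tag, at lower heights of 3.41 to 7.53. Also within TBC1D30, 12:65250365–65251890 and 12:65268959–65269519 had peaks in both METTL7A MYC-tag lists, at lower heights of 4.47 to 6.95, none reproducible. Beyond these, 12:65308973–65309779, with no gene named here, was reproducible in resistant wild-type MYC-tag (12.6 and 8.55) and resistant METTL7A IgG (7.99 and 8.15). SRGAP1, a Slit-Robo GTPase-activating protein gene, had a start peak in 3 wild-type lists at 4.15 to 6.23. Of the 11 genes listed for this cluster 7 had a matched peak, all at their start, and 3 a reproducible one, and C12orf56, XPOT, WIF1 and LEMD3 had none.

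**Figure D3:**
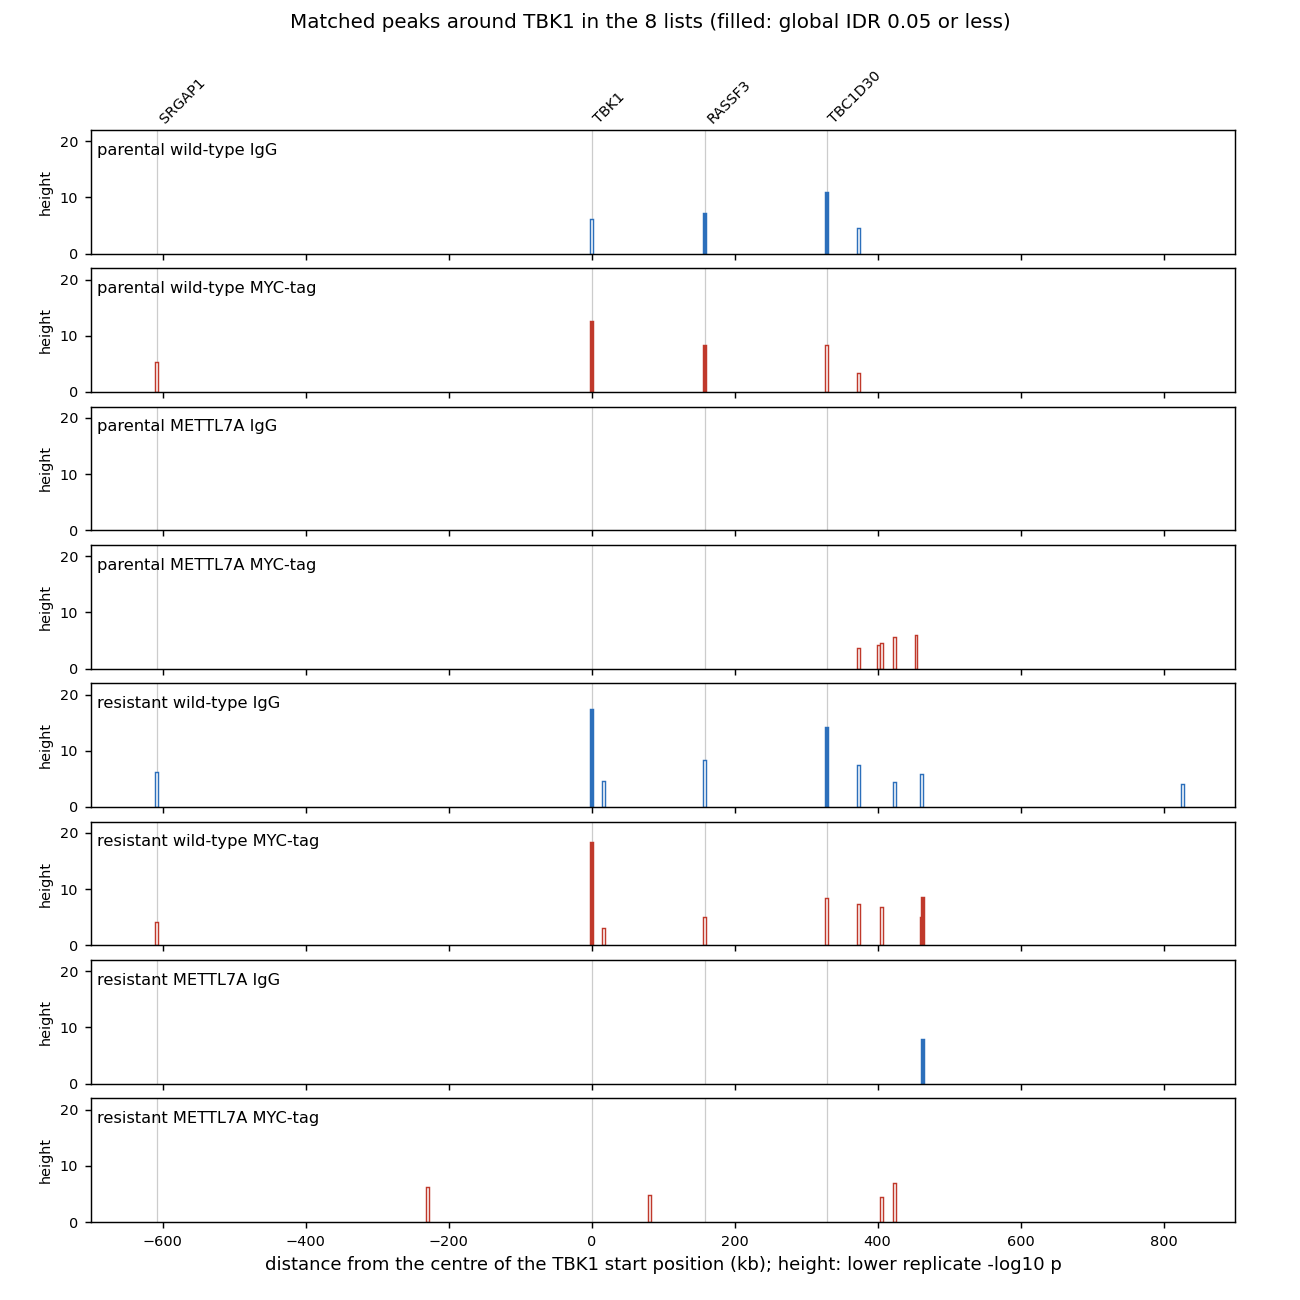
Matched peaks of the positions reported around TBK1 in the 8 lists, 1 panel per list, by distance from the centre of the TBK1 start position (x axis, kb) and height (y axis, lower replicate −log10 p). Filled bars are reproducible, red is MYC-tag and blue is IgG. The TBK1, RASSF3 and TBC1D30 starts have bars in the 4 wild-type panels, up to 18.3 at TBK1, and none in the METTL7A panels.

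MDM2 had no matched peak in any list. It lies in a gap of 186 kb, 12:69140305–69326795, between a peak at the start of SLC35E3, a solute carrier gene, and a peak in CPM, a membrane carboxypeptidase gene. The SLC35E3 peaks had heights of 3.10 in parental METTL7A MYC-tag and 3.17 in resistant wild-type IgG, and the CPM peak was 4.36 in parental wild-type MYC-tag. Of the 16 genes listed on the MDM2 side, 6 had a matched peak (HMGA2, GRIP1, MDM1, RAP1B, SLC35E3 and CPM), and 2 a reproducible one. HMGA2, a chromatin architecture protein gene, had the highest peak of the rest of the window, 20.1 and 16.1 in resistant wild-type IgG at its start (12:66218869–66219595). MDM1, which encodes a microtubule-binding centriole protein, had 7.71 and 4.24 in parental METTL7A IgG at 12:68726005–68726442, the only window peak of that list. The remaining reproducible peak, 12:66122861–66123474, had 15.1 and 8.04 in resistant wild-type MYC-tag.

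Recurrence over lists was counted by position. Of the positions, 16 of 49 in the CDK4 cluster, 5 of 16 in the TBK1 cluster and 0 of 45 in the rest had a matched peak in 4 or more lists, with 1.24% over the genome. A single list gave 24, 5 and 36 of them, against 87% over the genome. All 4 MYC-tag lists shared 9 positions in the CDK4 cluster and none elsewhere in the window, with 0.655% over the genome. Each of these 9 positions also had a peak in an IgG list. MYC-tag lists alone gave 61 of the 110 positions (65.3% over the genome) and IgG lists alone gave 15 (27.5%). The part of the window outside the clusters held 55 peaks on 45 positions, with 1, 8, 1 and 5 in the parental lists (wild-type IgG and MYC-tag, METTL7A IgG and MYC-tag) and 15, 16, 0 and 9 in the resistant ones.

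**Figure D4:**
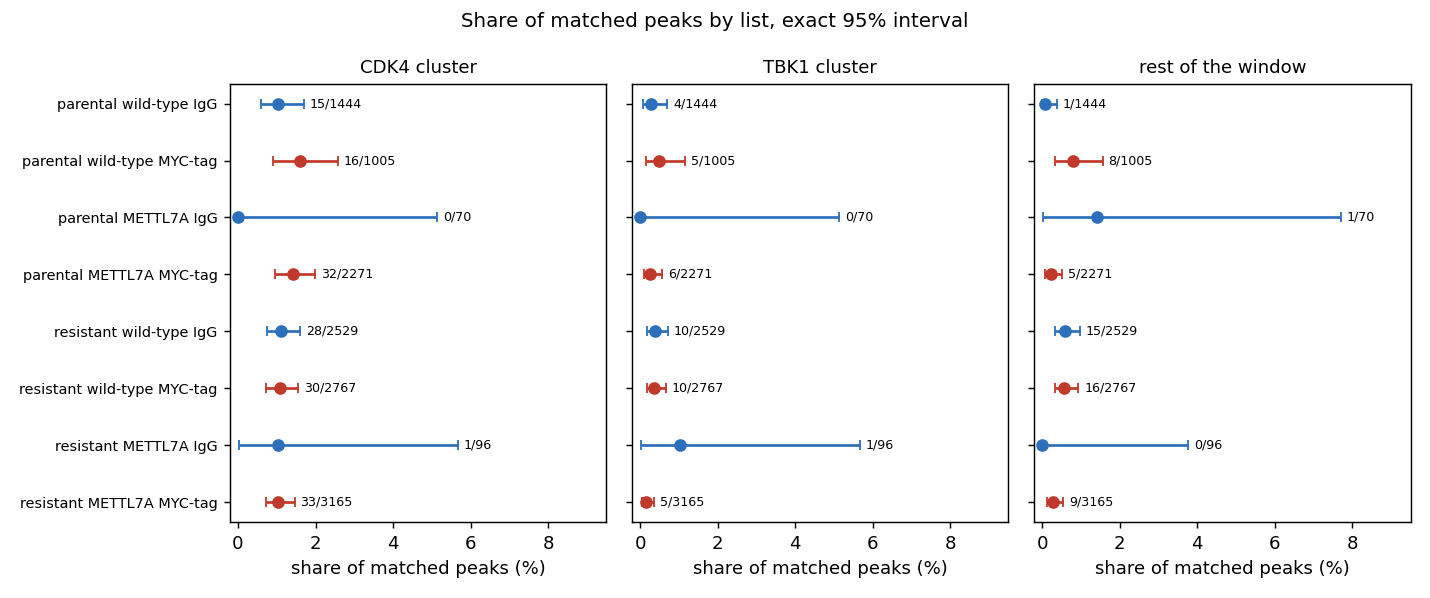
Share of each list's matched peaks (x axis, %) in the CDK4 cluster, the TBK1 cluster and the rest of the window, for each list (y axis), with exact 95% intervals as bars and the counts beside them. Red is MYC-tag and blue is IgG. In the CDK4 cluster the intervals of all 8 lists overlap, and the METTL7A IgG lists have the widest.

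Whether the window took a different share of peaks with the MYC-tag antibody, with METTL7A or in resistant cells was compared per 1 Mb bin. The test was a two-sided Fisher exact test of matched peaks in and outside the bin, adjusted by Benjamini-Hochberg over all bins of the genome with 5 or more peaks. It compares lists and treats neighbouring peaks as independent, and the spread between cultures does not enter it. In 9 of 10 list pairs the window had bins to test, 38 tests in all, and none passed an adjusted p of 0.05, while 2 had an unadjusted p under 0.05. Not all 38 could have passed. A bin of 5 peaks over lists of like length is too small to pass at any split. In METTL7A cells the IgG lists held 70 and 96 peaks, too few for a MYC-tag excess to show in these bins. Pairs share lists and are not independent of each other.

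Between antibodies, the bin at 58 to 59 Mb held 15 of 1005 MYC-tag peaks and 14 of 1444 IgG peaks of parental wild-type cells, an odds ratio of 1.55 (95% interval 0.693 to 3.48, adjusted p = 0.885 by Fisher's exact test). In resistant wild-type cells it held 20 of 2767 and 22 of 2529, an odds ratio of 0.830 (0.428 to 1.60, adjusted p = 0.991 by Fisher's exact test). In METTL7A cells it held 22 of 2271 against 0 of 70 in parental and 22 of 3165 against 1 of 96 in resistant cells, with an adjusted p of 1 in both by the same exact test. Over the genome 3.16% of 95 bins and 0% of 298 were called in the wild-type pairs, and 0% of 108 and 1.08% of 185 in the METTL7A pairs. The intervals leave room for a difference in either direction.

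Between genotypes, MYC-tag peaks in that bin numbered 22 of 2271 in METTL7A and 15 of 1005 in wild-type parental cells, an odds ratio of 0.646 (0.319 to 1.34, adjusted p = 0.874 by Fisher's exact test). In resistant cells they numbered 22 of 3165 and 20 of 2767, 0.961 (0.499 to 1.86, adjusted p = 1 by the exact test). The bin at 57 to 58 Mb, which holds KIF5A and PIP4K2C, had 10 peaks in parental METTL7A against 1 in parental wild-type MYC-tag, an odds ratio of 4.44 with an interval from 0.630 to 193 (adjusted p = 0.874, exact test). In resistant cells the bin at 57 to 58 Mb held 11 of 3165 against 10 of 2767, 0.962 (0.370 to 2.53). Between resistant and parental wild-type lists it held 10 peaks against 1 with MYC-tag and 6 against 1 with IgG. At 66 to 67 Mb, around HMGA2, 1 peak stood against 4 in parental METTL7A and wild-type MYC-tag. The odds ratio was 0.110 (0.00224 to 1.12, unadjusted p = 0.0333 and adjusted p = 0.735, exact test). The bin at 65 to 66 Mb, with RASSF3 and TBC1D30, held 6 of 2271 METTL7A against 3 of 1005 wild-type peaks in the parental state, an odds ratio of 0.885 (0.189 to 5.48, adjusted p = 1, exact test). In the resistant state it held 3 of 3165 against 7 of 2767, 0.374 (0.0624 to 1.64, adjusted p = 0.648, exact test). Called bins made up 0% of 157 in parental and 1.19% of 336 in resistant cells.

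Between states, the bin at 58 to 59 Mb held 20 of 2767 peaks in resistant and 15 of 1005 in parental wild-type MYC-tag, an odds ratio of 0.481 (0.233 to 1.01, unadjusted p = 0.0349 and adjusted p = 0.785, Fisher's exact test). For wild-type IgG it was 0.896 (0.437 to 1.90, adjusted p = 1, exact test) and for METTL7A MYC-tag 0.716 (0.377 to 1.36, adjusted p = 0.857, exact test). Called bins made up 1.69% of 177, 0% of 202 and 0.342% of 292. The METTL7A IgG pair had no bin of the window with enough peaks.

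Overlap between lists was counted as a share of each list. Of the CDK4 cluster's peaks, 25 of 33 in resistant METTL7A MYC-tag overlapped a parental METTL7A MYC-tag peak (14.7% of that whole list did), and 25 of 32 the other way (19.9%). In wild-type cells 13 of 30 resistant MYC-tag peaks overlapped a parental one (6.65%) and 14 of 16 the other way (18.7%). For wild-type IgG it was 11 of 28 (8.46%) and 11 of 15 (15%). Across genotypes, 13 of 32 parental METTL7A MYC-tag peaks overlapped a wild-type one (6.61%) and 13 of 16 the other way (16.6%), and in resistant cells 22 of 33 (8.21%) and 22 of 30 (9.43%). In the TBK1 cluster 1 of 6 and 1 of 5 overlapped across genotypes in parental cells, and 2 of 5 and 2 of 10 did so in the resistant state, against 5 of 10 and 5 of 5 between states in wild-type MYC-tag. In the rest of the window 0 of 5 and 0 of 8 overlapped across genotypes in parental cells (6.61% and 16.6% of the whole lists). In resistant cells 0 of 9 and 0 of 16 did (8.21% and 9.43%). Between states it was 0 of 9 and 0 of 5 in METTL7A MYC-tag and 0 of 15 and 0 of 1 in wild-type IgG. In wild-type MYC-tag it was 1 of 16 and 1 of 8. Counts this small cannot tell 0 from the shares of the whole lists. The shares in the window describe a stretch picked for its recurrent peaks.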

How the data were processed

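The 16 precipitated samples came as 8 lists, each combining the 2 replicates of a group. Per the submitters' processing notes, the tools were MACS2 2.2.7.1, Bowtie2 2.4.2, deepTools 3.5.1, SAMtools 1.16, bedtools 2.30, FastQC and Trimmomatic, on GRCh37, with neither roles nor order. For control libraries, duplicate removal, blacklists and the IDR tool's version, the entry is: not given in the sources used here. Sequencing was planned at 20 M reads per library, per the labels, and read totals are unknown from the lists.

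The deposited files have 20 columns in IDR layout. Heights and IDR values are −log10 values deposited by the authors. The score deposited by the authors is a scaled IDR that reaches 1000 and was not used for selection. Start coordinates were counted from 1. With Python 3.11.15, pandas 2.3.3 and scipy 1.17.1, peaks were assigned by midpoint, merged into positions at an overlap of 1 bp, and tested by two-sided Fisher exact tests per 1 Mb bin with 5 or more peaks, adjusted by Benjamini-Hochberg over all bins of each of 10 list pairs. The test was tested on simulated data.

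Named positions were those with a reproducible peak, those with matched peaks in 4 or more lists, and of the others the highest of each list. The window, members and gene lists were chosen with earlier results of these data known. No GRCh37 annotation was used. The rule planned for naming asked for a table that ties a gene to a position, and for most positions there was none, so gene names at peaks rest on general knowledge of GRCh37 gene positions. Their order was checked against RefSeq on GRCh38.p14, where all 35 genes tied to 63 positions were found with 0 breaks of order. Positions for which no gene was sure are given without one, and 1 position that meets the naming rule is not reported here, in text or figures. SLC26A10 of the planned list appears there as SLC26A10P, and B4GALNT1 has no promoter in the table. The alternatives were other peak thresholds, 2 Mb bins, leaving out chromosome 7, a 50% overlap, each set of replicate columns and other gaps between positions.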

Additional observations from a re-analysis of the deposited data

How the results depend on the processing

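Of the alternative values of counts and of tests, 121 kept within 1.5 times the main value, or within its interval where it is a share, and 23 did not. Most of the 23 came from the IDR threshold. At a global IDR of 0.01 the CDK4 cluster kept 7 reproducible peaks in parental METTL7A MYC-tag, 3 in resistant wild-type MYC-tag but 0 in resistant wild-type IgG and in parental wild-type MYC-tag. The TBK1 cluster then had 1 in parental wild-type IgG, 1 in resistant wild-type MYC-tag but 0 in parental wild-type MYC-tag, resistant wild-type IgG and resistant METTL7A IgG, and the rest of the window 0 in both resistant wild-type lists. At 0.1 the CDK4 cluster had 5 in parental wild-type MYC-tag, 14 in resistant wild-type MYC-tag, 1 in resistant METTL7A IgG, the TBK1 cluster 4 and the rest 2 in resistant wild-type MYC-tag. With reproducible peaks only, positions in 4 or more lists fell to 2 in the CDK4 cluster and 0 in the TBK1 cluster, those in all 4 MYC-tag lists to 0, those in all 4 wild-type lists and no METTL7A list to 0 in either cluster, and the CDK4 cluster had 4 positions in both METTL7A MYC-tag lists and no other. Of these 4, only the PIP4K2C start had no matched wild-type peak. The SLC26A10P and OS9 positions had matched wild-type peaks that missed the IDR threshold. No share over the genome stands beside this count. With reproducible peaks only, 1 window bin passed in parental METTL7A cells between MYC-tag and IgG, at 58 to 59 Mb (odds ratio 10.9, adjusted p = 0.0364 by Fisher's exact test), where over that result's other alternatives the adjusted p was 1. The cause was not tested. The ratios here carry Haldane's correction, and for this pair it came to 0.125 with a height of 5 or more in both replicates, 0.559 in the first and 0.251 in the second replicate columns. The IgG list has 0 peaks in the bin in all of these, so values below 1 come from the correction and give no measured direction. The same holds for 2.08 in resistant METTL7A cells with reproducible peaks only, where the IgG list also has 0. The direction between antibodies at 58 to 59 Mb reversed to 0.910 in parental wild-type cells with reproducible peaks only, and in resistant wild-type cells to 1.35 with a height of 5 in both replicates and 1.51 in the second columns. None of these 3 passed the test. Leaving out chromosome 7, 2 Mb bins and an overlap of 50% moved no count beyond 1.5 times. No paired analysis was possible because each list already combines both replicates of its group. For the same reason leaving out a replicate was not run, and the 2 sets of columns took its place. Depth is unknown from the files, so it cannot be said which missing peaks a deeper library would show.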

Other observations

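The 2 sets of replicate columns were not evenly matched in the CDK4 cluster, or in some lists of the TBK1 cluster. In resistant wild-type MYC-tag the first value was the higher at 27 of 30 CDK4 cluster peaks (90%), against 65.4% of the whole list. In parental wild-type MYC-tag the first was the higher at 10 of 16 (62.5%), against 48.5%. In resistant wild-type IgG the second was the higher at 21 of 28 (75%), against 62.1%, and in parental METTL7A MYC-tag at 23 of 32 (71.9%), against 61.9%. In resistant METTL7A MYC-tag it was the higher at 23 of 33 (69.7%), against 51.1%. In parental wild-type cells the second was the higher at 11 of 15 CDK4 cluster peaks with IgG (73.3%, against 59.4%) and at all 4 and 5 TBK1 cluster peaks with IgG and MYC-tag. Over the whole parental wild-type MYC-tag list it was the higher at 51.5%. The TBK1 cluster split evenly in resistant wild-type MYC-tag (5 and 5) and parental METTL7A MYC-tag (3 and 3). There the second was the higher at 8 of 10 peaks in resistant wild-type IgG and 4 of 5 in resistant METTL7A MYC-tag. Which library fills which columns is not given, and the part of this imbalance in the counts was not tested. Median heights in the CDK4 cluster were 4.96 and 6.13 in parental wild-type IgG and MYC-tag, against 3.70 and 4.40 over those lists. They were 7.44 in parental METTL7A MYC-tag (4.76 over the list) and 5.67 in resistant METTL7A MYC-tag (4.49), and in resistant wild-type cells 6.68 with IgG (4.52) and 6.63 with MYC-tag (4.15). Peaks of the cluster were also wide in 2 lists, with a median of 1516 bp in parental wild-type MYC-tag against 632 bp over the list, and 1222 bp in resistant wild-type MYC-tag against 595 bp.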
